A study of Mus musculus with 17 samples.

Results

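The genes described here are 44 members of the amino acid response, most of them known targets of the transcription factor ATF4. They were listed by name for their function, with earlier results of these data known. Their counts beside shares of all genes are therefore descriptive and are not an independent test. The probe sets of 43 of them could be found by Entrez identifier, among 18195 genes with a probe set of a single gene, and Pycr1 has no named probe set here. Each gene is given by its brightest probe set, as log2 of the deposited intensity, and levels of different genes are not compared. By role they are 7 transcription factors and regulators, 8 enzymes of amino acid synthesis, 3 of mitochondrial one-carbon metabolism, 7 amino acid carriers, 8 effectors of translation and stress, and 10 cytosolic tRNA synthetases.

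The study asked how retinoic acid (RA), the active metabolite of vitamin A, acts on mouse CD4 T cells that are turning into Foxp3+ regulatory T cells, and measured 17 arrays in 8 groups. In the co-culture, Foxp3- CD4 T cells from the spleen of C57BL/6-Foxp3/GFP males were stimulated for 5 days with anti-CD3 at 1 ug/ml, TGFbeta at 0.6 ng/ml and IL-2 at 5 ng/ml. The dendritic cells added were from spleen (Sp-DC), from lamina propria (LP-DC), or from spleen together with 100 nM RA. Each culture was sorted by the GFP reporter into Foxp3+ and Foxp3- cells, with 2 arrays per group, except Foxp3- cells of the RA culture, for which 1 array was used and another was not analysed here. In the memory experiment, CD44hi CD62L- CD25- CD4 T cells of C57BL/6 males, from spleen and lymph nodes, were mixed with naive cells. They were stimulated for 48 hours with anti-CD3/CD28 beads, IL-2 at 20 U/ml and TGFbeta at 10 ng/ml, with 100 nM RA or without, and sorted back on a congenic difference in CD45 (CD45.1 or CD45.2, 3 arrays per group). All mice were 6 to 10 weeks old, and 3 were pooled for each array. Without a block for the array number, the p-values measure the spread between pools. With that block, they measure the spread left after differences between numbers are taken out.

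ATF4 protein is made when the initiation factor eIF2 is phosphorylated, as by the kinase GCN2 when uncharged tRNA builds up, or by PERK when proteins misfold in the endoplasmic reticulum. It then pairs with other basic leucine zipper proteins and switches on genes for amino acid uptake, amino acid synthesis, one-carbon metabolism and tRNA charging. In activated T cells the same genes also respond to mTORC1 signalling, since dividing T cells need amino acids.

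Many ATF4 targets carry a composite element of a C/EBP and an ATF half-site, TGATGNAA, near their start. In RefSeq promoters of build GRCm38.p6, the 250 bases before the start held these letters on either strand in 11 of the 37 members with a promoter, against 3.91% of 27025 genes. Of the 9 members with a promoter that fell with RA in memory cells, 3 held it, and these were Atf3, Asns and Chac1. The cAMP response element TGACGTCA, which does not contain the first motif, was found in 1 of 37 members (Ppp1r15a), against 1.77% of all genes. The windows of the 3 members that fell, and of 2 members with the same letters that did not pass the test, are printed 5′ to 3′ on the strand of the gene, with the match in capitals.
Atf3 (chr1:191183410-191183469, minus strand, match at -110 to -103 from the start): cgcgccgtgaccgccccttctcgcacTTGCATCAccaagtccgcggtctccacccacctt
Asns (chr6:7693210-7693258, minus strand, -23 to -16): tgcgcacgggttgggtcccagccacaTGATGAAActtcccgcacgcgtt
Chac1 (chr2:119351023-119351082, plus strand, -193 to -186): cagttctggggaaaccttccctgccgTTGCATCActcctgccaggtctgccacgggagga
Nupr1 (chr7:126625547-126625606, minus strand, -110 to -103): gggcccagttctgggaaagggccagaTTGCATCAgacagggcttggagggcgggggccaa
Slc7a11 (chr3:50443646-50443705, minus strand, -66 to -59): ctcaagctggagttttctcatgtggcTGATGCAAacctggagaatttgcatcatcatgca
In Atf3, Chac1 and Nupr1 the match lies on the opposite strand, where it reads as the reverse complement. Slc7a11 holds a further match in lower case within the same window. A match describes the letters and does not show that ATF4 binds there.

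The arrays had medians of 59.03 to 63.17 and no column repeated another. The T cell genes Cd3d, Cd3e and Cd28 lay far above the array median in all groups, whereas the Foxp3 probe set was near background in the co-culture (14.7 to 23.0 in intensity, in both sorts) and read 136 to 565 in memory cells, so that it does not check the co-culture sort. The difference of the Actb 3 prime and 5 prime control probe sets, which grows as RNA is shortened, was 1.80 to 2.18 on co-culture arrays numbered 1, 2.72 to 2.97 on those numbered 2, and 3.54 to 4.08 in the memory experiment. For Gapdh it was 2.91 to 3.51, 2.09 to 3.04 and 3.58 to 4.74 on the same arrays. In each co-culture group with 2 arrays Gapdh was lower on array 2, so the controls ranked these numbers in opposite order. In a mixture of cells, fewer cells of a type and less RNA per cell cannot be told apart.

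RA in memory cells was followed by lower levels of much of the programme. By the probe set used for each gene, the largest differences were in Cth, which is dim with RA, Atf3, Trib3 and Asns, while other probe sets of Vldlr and Gpt2 differed by -4.03 and -2.46. In the limma fit that takes the array number as a block, 13 of 43 members fell and 0 rose (adjusted p under 0.05), where 5.15% of the 12163 genes tested passed and 2.44% passed downward. In the limma fit without the block, 0 of 43 passed, against 0.0987% of genes, and 11 had an unadjusted p under 0.05, against 4.14%. With the block, 27 had an unadjusted p under 0.05, against 15.7%. The array numbers were taken to pair the arrays, so values are given below from both fits. A member is said to fall only where it passed with the block, and no such fall passed in the matching fit without it.

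The direction was common to most members whether or not they passed. The mean was lower with RA in 36 of 43, against 50.3% of all genes, and the median difference was -0.41, against -0.0011 over all genes tested. Comparing arrays of the same number, 33 members were lower in all 3 pairs, against 17.6% of genes. Cebpb and Wars were higher in all 3, and 8 were mixed. In 14 members the groups did not overlap, with every RA array below every array without RA, against 3.58% of genes. Averaged over the 43 members, with each gene centred on its mean in the experiment, memory arrays 1, 2 and 3 stood at 0.23, 0.18 and 0.38 and the RA arrays at -0.29, -0.32 and -0.18.

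**Figure D1:**
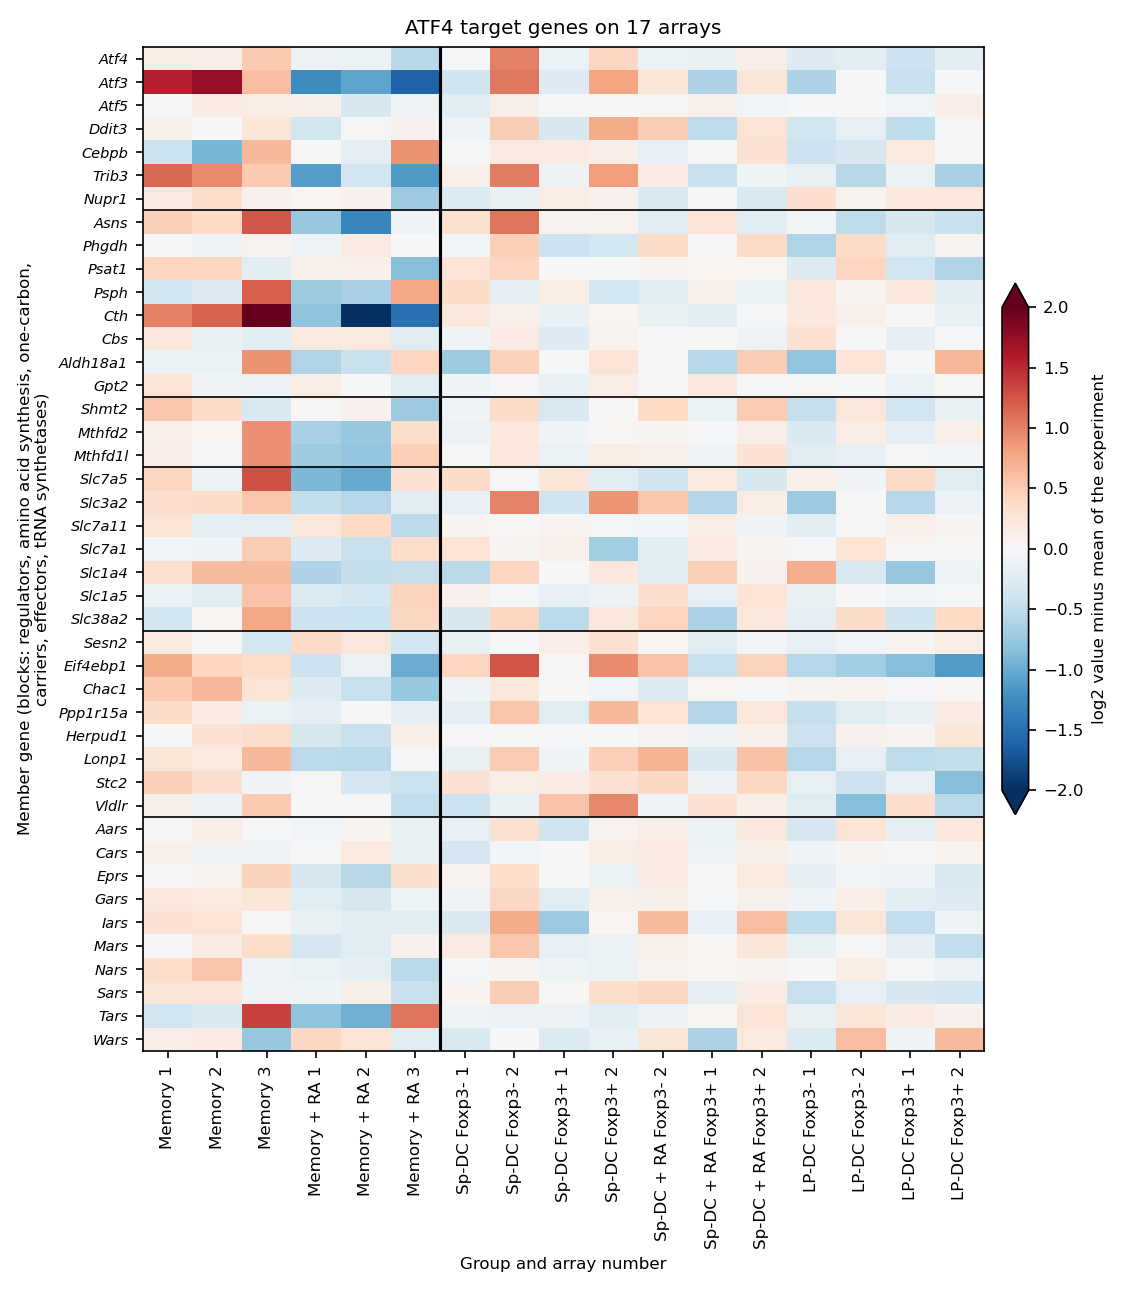
Colour shows the log2 value of each of 43 members minus its mean in the same experiment, on 17 arrays, with the memory experiment left of the heavy line and the roles in blocks from top to bottom. In the memory experiment 36 members have a lower mean with RA, while Cebpb and Wars are higher with RA in all 3 pairs.

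Among the regulators, Atf3, a basic leucine zipper factor induced downstream of ATF4, read 9.96, 10.15 and 9.02 on memory arrays 1, 2 and 3 and 7.15, 7.36 and 6.79 with RA. The groups were far apart, and Atf3 fell 6.11-fold (log2 difference -2.61 ± 0.15, SE; adjusted p = 2.47e-05 with the block and 0.0863 without). Trib3, a pseudokinase that binds ATF4 and restrains it, read 9.11, 8.90 and 8.48 without RA and 6.86, 7.58 and 6.82 with it. It fell 3.35-fold (-1.74 ± 0.18, adjusted p = 0.000537 with the block and 0.126 without), and its other probe set differed by -0.98.

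Atf4 itself read 10.59, 10.58 and 10.96 without RA and 10.32, 10.30 and 9.89 with it. The groups did not overlap, but the difference did not pass (-0.54 ± 0.18, adjusted p = 0.145 with the block and 1 without). Most of it came from array 3, whose pair differed by -1.07, against -0.27 and -0.28 in the others. Without that pair the blocked difference was -0.27 (adjusted p = 0.632), and without pair 1 or 2 it was -0.68 or -0.67 and passed (adjusted p = 0.00914 and 0.0497). These fits, chosen after seeing the data, have 1 residual degree of freedom, so their p-values lean on the prior variance. Since ATF4 is controlled mainly by translation, its transcript is a partial measure of its activity. Ddit3, which encodes the stress factor CHOP, read 6.65, 6.54 and 6.79 without RA and 6.18, 6.52 and 6.64 with it, and these ranges overlap (-0.22 ± 0.14, adjusted p = 0.523 with the block and 1 without). Of the other regulators, Nupr1 (-0.41 ± 0.16), Atf5 (-0.20 ± 0.15) and Cebpb (0.46 ± 0.14, adjusted p = 0.119 with the block and 1 without), a C/EBP partner of ATF4, did not pass. Nupr1 read near the array medians (5.41 to 6.49).

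Of the 8 synthesis enzymes 2 fell. Asns, asparagine synthetase and the classical reporter of this response, read 9.78, 9.71 and 10.55 without RA and 8.54, 8.005 and 9.24 with it. Each RA array lay below all arrays without RA (-1.42 ± 0.14, adjusted p = 0.000471 with the block and 0.504 without), and a further probe set of the gene differed by -1.68. Cth, which makes cysteine from cystathionine, read 7.05, 7.23 and 8.28 without RA and 5.25, 3.95 and 4.56 with it. Its 3 RA values lie under the array median, so that the size of the difference depends on dim values (-2.93 ± 0.30, adjusted p = 0.000537 with the block and 0.107 without). The enzymes of serine synthesis did not pass: Psat1 (-0.42 ± 0.13) and Psph (-0.38 ± 0.12) were lower in mean and Phgdh (0.05 ± 0.13) differed by less than its error. Aldh18a1 (-0.41 ± 0.13), of proline synthesis, Cbs (0.10 ± 0.14) and Gpt2 (-0.05 ± 0.13) did not pass either. The probe sets used for Cbs (5.96 to 6.42) and Gpt2 (5.91 to 6.40) read near the array medians (5.88 to 5.98), so a fall could hardly be seen in them. Phgdh and Aldh18a1 each have another probe set that differed in the other direction. The other probe set of Gpt2 that was above the array median on 2 or more arrays differed by -2.46.

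The one-carbon enzymes work in the mitochondrial folate cycle, and 2 of 3 fell. Mthfd2, which oxidises methylene-tetrahydrofolate, read 10.71, 10.66 and 11.53 without RA and 9.96, 9.85 and 10.97 with it. The ranges overlap because both arrays numbered 3 are high, yet each pair is lower with RA (-0.71 ± 0.13, adjusted p = 0.0124 with the block and 1 without). Mthfd1l, which releases formate, read 9.15, 8.97 and 9.91 without RA and 8.30, 8.23 and 9.48 with it, again with array 3 highest in both groups (-0.67 ± 0.14, adjusted p = 0.0221 with the block and 1 without). Shmt2, which takes the carbon unit from serine, did not pass (-0.41 ± 0.13, adjusted p = 0.128 with the block).

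Among the carriers 3 of 7 fell. Slc7a5, the light chain of the large neutral amino acid transporter that brings in leucine, read 10.80, 10.25 and 11.64 without RA and 9.48, 9.37 and 10.66 with it. It was lower with RA in each pair, although RA array 3 lay above memory array 2 (-1.06 ± 0.14, adjusted p = 0.00218 with the block and 1 without). Slc3a2, the heavy chain that carries this transporter to the surface, read 10.56, 10.60 and 10.77 without RA and 9.75, 9.67 and 10.02 with it, with no overlap (-0.83 ± 0.13, adjusted p = 0.0048 with the block and 0.332 without). Slc1a4, a carrier of alanine, serine and cysteine, read 7.15, 7.48 and 7.47 without RA and 6.23, 6.36 and 6.39 with it, also with no overlap (-1.04 ± 0.13, adjusted p = 0.00149 with the block and 0.148 without). The cationic carrier Slc7a1 (-0.23 ± 0.13), the glutamine carriers Slc38a2 (-0.29 ± 0.14) and Slc1a5 (-0.13 ± 0.12), and the cystine carrier Slc7a11 (0.07 ± 0.18) did not pass. The probe set of Slc7a11 read near the array medians (5.55 to 6.47), so a fall could hardly be seen in it.

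Of the 8 effectors 3 fell. Eif4ebp1, whose protein holds back cap-dependent translation until mTORC1 phosphorylates it, read 10.46, 10.15 and 10.07 without RA and 9.30, 9.60 and 8.73 with it. The groups did not overlap (-1.02 ± 0.17, adjusted p = 0.00687 with the block and 0.491 without), and its other 2 probe sets differed by -0.81 and -0.23. Chac1, which degrades glutathione, read 7.40, 7.54 and 7.15 without RA and 6.63, 6.44 and 6.13 with it (-0.97 ± 0.13, adjusted p = 0.00278 with the block and 0.314 without). Lonp1, a mitochondrial protease, read 9.67, 9.62 and 10.07 without RA and 8.91, 8.89 and 9.40 with it (-0.72 ± 0.12, adjusted p = 0.00944 with the block and 0.754 without). Neither Chac1 nor Lonp1 overlapped between groups. The remaining effectors did not pass, among them the eIF2 phosphatase subunit Ppp1r15a (-0.26 ± 0.14), the mTORC1 inhibitor Sesn2 (0.14 ± 0.13), Herpud1 (-0.43 ± 0.14), Stc2 (-0.49 ± 0.13) and Vldlr (-0.35 ± 0.20). For Stc2 and Vldlr this depends on the probe set: others of the same genes differed by up to -1.59 and -4.03. With all probe sets of a gene averaged, Stc2, Vldlr, Psat1 and Gars passed with the block as well, for 17 members in all.

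Only Nars, which charges tRNA with asparagine, fell among the 10 synthetases in that fit. It read 12.72, 12.92 and 12.29 without RA and 12.23, 12.18 and 11.83 with it, without overlap (-0.56 ± 0.13, adjusted p = 0.0411 with the block and 1 without). The other 9 lay between -0.47 (Tars) and 0.30 (Wars), and Wars, the tryptophan enzyme, also responds to interferon. Eprs (-0.37 ± 0.14), Mars (-0.33 ± 0.12), Sars (-0.28 ± 0.13), Aars (-0.10 ± 0.12) and Cars (0.02 ± 0.14) did not pass. The probe set used for Cars read near the array medians (6.08 to 6.41), and another differed by -0.30. Gars (-0.44 ± 0.13, adjusted p = 0.0928 with the block) and Iars (-0.38 ± 0.13, adjusted p = 0.16 with the block) had groups that did not overlap.

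**Figure D2:**
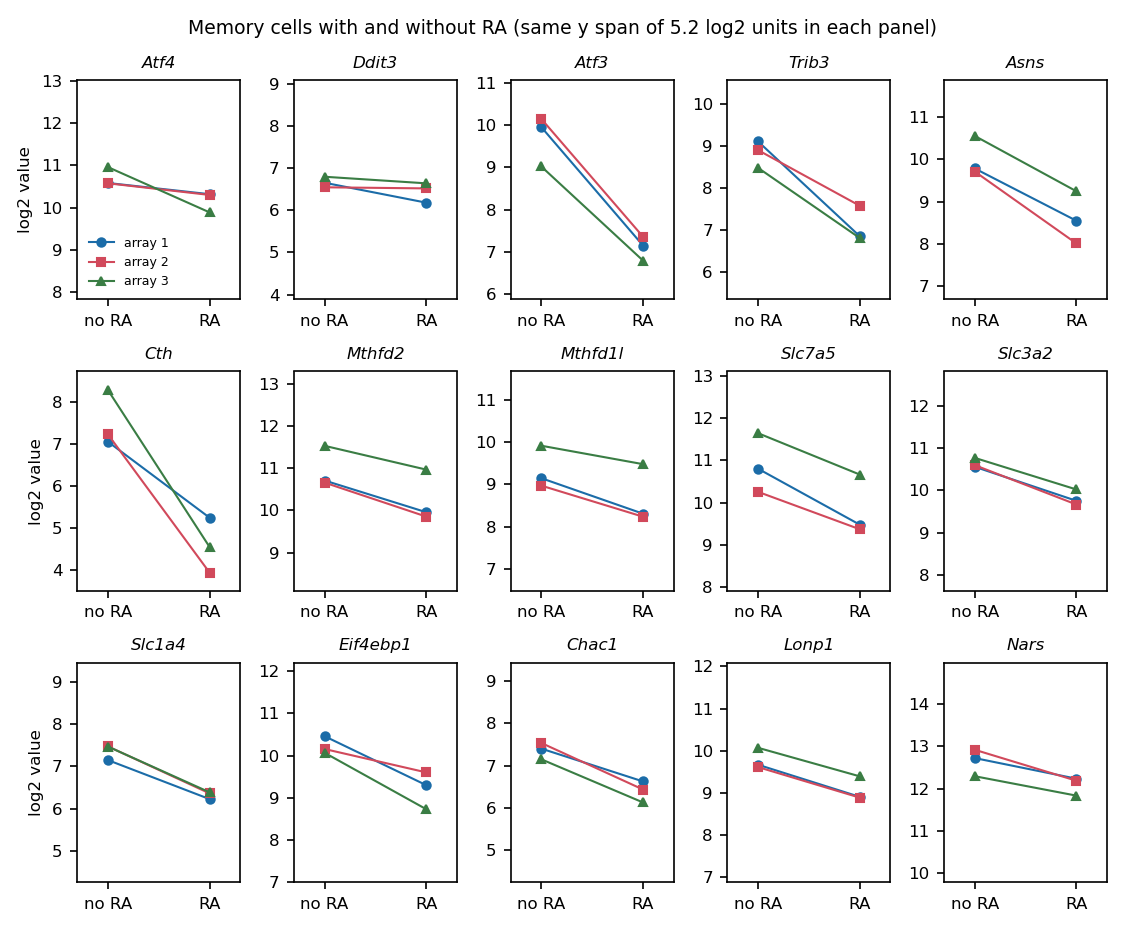
Each panel gives the log2 value of 1 member in memory cells without and with RA, and lines join arrays of the same number (3 pairs). Atf4 and Ddit3 are shown with the 13 members that passed with the block, whose lines all slope down.

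The arrays numbered 3 stood apart, with higher Tars, Psph, Slc7a5 and Mthfd2 in both groups, and weigh on these counts. With both of them left out, 6 of 43 passed with the block, all among the 13, and Chac1, Eif4ebp1, Lonp1, Mthfd1l, Mthfd2, Nars and Slc3a2 no longer did. The same removal without the block gave 7 calls, all among the 13. Atf3, Cth, Trib3, Asns, Slc1a4 and Slc7a5 passed in each of 8 settings with the block, while Nars passed in 5. Of the T cell markers Cd3e rose and Cd2 fell in the blocked fit. The 4 CD8 T and NK cell markers summed to 284 to 773 in intensity without RA and 660 to 1400 with it, and of these Nkg7 rose in that fit (1.76). Cd8a did not rise (mean log2 level 7.61 without RA and 7.55 with it), and Cd8b1 and Ncr1 were under the array median in both groups. The 9 dendritic cell markers summed to 647 to 1192 and 655 to 1049. Their part in the lower values of the members was not tested.

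Genes near the programme but outside the list divided by kind, in lists that were also chosen with earlier results of these data known. Of 10 further ATF4 targets measured, 6 fell with the block, 0 passed without it (5 with an unadjusted p under 0.05), and their median was -0.62. These include Ddit4 (-1.83 ± 0.16, adjusted p = 0.000267 with the block and 0.0925 without), an mTORC1 inhibitor, Slc7a3 (-1.62 ± 0.18, adjusted p = 0.000873 with the block and 0.133 without), a cationic amino acid carrier, Aldh1l2 (-1.19 ± 0.19, adjusted p = 0.00591 with the block and 0.332 without), a mitochondrial folate enzyme, and Vegfa (-0.85 ± 0.16, adjusted p = 0.0151 with the block and 0.721 without). Among 8 genes of the eIF2 kinases and translation control, Impact, which restrains GCN2, fell (-0.61 ± 0.14, adjusted p = 0.0409 with the block and 1 without). Eif2ak4, which encodes GCN2 (0.17 ± 0.15), and Eif2ak3, which encodes PERK (-0.03 ± 0.13), did not pass. Of 8 other amino acid carriers, Slc43a2 rose (0.71 ± 0.14, adjusted p = 0.0167 with the block and 0.611 without).

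Other lists held 0 calls in either limma fit. The 16 targets of ATF6 and XBP1, which mark the remaining branches of the unfolded protein response, had a median of 0.03, and 0 had an unadjusted p under 0.05 with the block. In the list of 9 other cytosolic synthetases the median was -0.22 and 2 had an unadjusted p under 0.05 with the block. The 14 mitochondrial synthetases tested, encoded by separate genes, had a median of 0.04 and 1 such gene. The 8 other folate and purine genes (median -0.03) and the 4 tested targets of NRF2 (median -0.12), a regulator that shares Slc7a11 with ATF4, had 0 such genes.

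**Figure D3:**
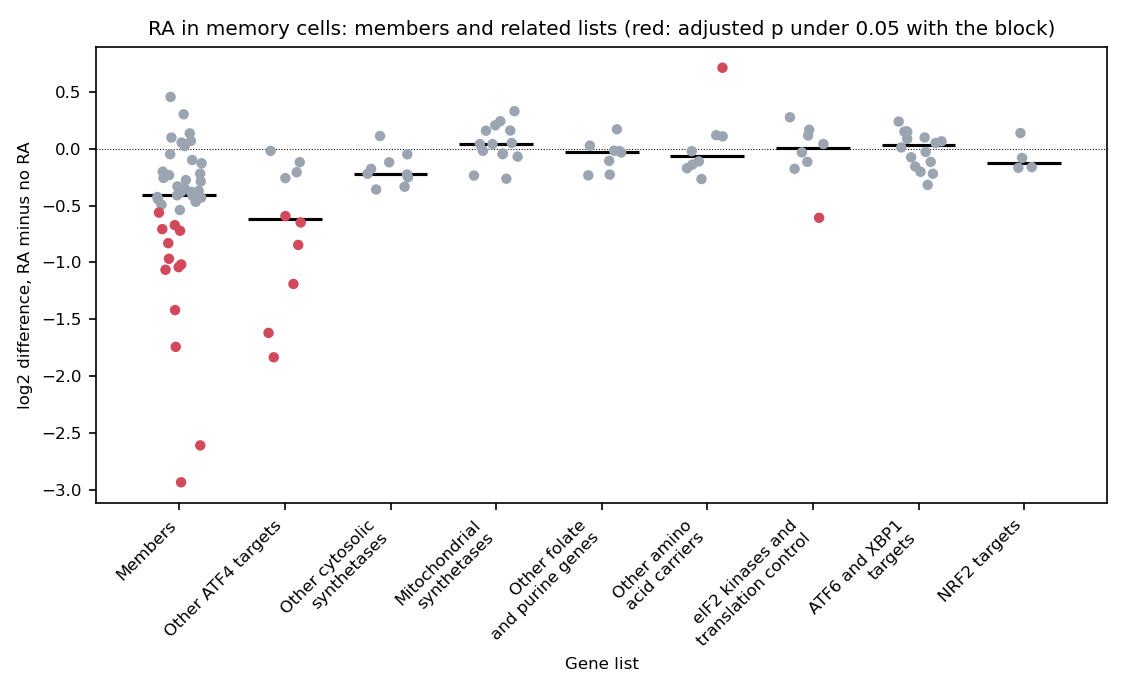
Points are genes, the vertical axis is the log2 difference between memory cells with and without RA, bars are medians, and red marks an adjusted p under 0.05 with the block. The medians are -0.41 for the members and -0.62 for other ATF4 targets, against 0.03 for ATF6 and XBP1 targets.

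In Foxp3+ cells of the Sp-DC culture 0 members passed with RA. Means were lower in 6 of 7 regulators and 6 of 8 effectors, and higher in 7 of 10 synthetases and all 3 one-carbon enzymes. Over the members tested the median difference was 0.02, and 22 were higher and 20 lower, where 50.3% of all genes were lower. Of all 43 members, with Cth under the filter, 15 were lower in both pairs of arrays, against 28.2% of genes tested. Of the 42 tested, 0 passed in limma without the block (0.101% of genes did) and 0 with it (1.03%). An unadjusted p under 0.05 was found in 1 without the block, against 4.82% of genes, and in 4 with it, against 12.3%. Atf3 read 6.23 and 7.28 without RA and 5.87 and 6.74 with it, Atf4 9.71 and 10.26 against 9.70 and 9.98, and Ddit3 7.06 and 8.13 against 6.88 and 7.66. Array 2 was the higher one in each of these groups, so the ranges overlap, while all 3 genes were lower with RA in both pairs. The smallest unadjusted p with the block belonged to Iars, the isoleucine synthetase, which was higher with RA in mean (0.57 ± 0.15, adjusted p = 0.146).

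In Foxp3- cells the RA culture has 1 array, whose spread is taken from the other groups, and it was compared with 2 arrays of Sp-DC. Without the block 0 of 42 passed in limma (0.00838% of genes did) and 1 had an unadjusted p under 0.05, against 2.49%. With the block 0 passed (0.268%) and 2 had an unadjusted p under 0.05, against 6.11%. These 2 were Atf4 (-0.83 ± 0.27, adjusted p = 0.503) and Asns (-0.90 ± 0.33, adjusted p = 0.613). Atf4 read 9.72 with RA and 9.81 and 10.86 without. By group means without the block this probe set differed by -0.61 and the other probe set of Atf4 by 0.13, in the other direction. Asns read 6.69 with RA and 7.24 and 7.996 without. The RA array is numbered 2, and Sp-DC array 2 of Foxp3- cells had the highest mean of the members in the co-culture (0.33 when centred).

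The difference between the RA effect in memory cells and that in Foxp3+ cells was fitted over all 17 arrays. Without the block 0 of 42 members differed (0.052% of genes did), and 7 had an unadjusted p under 0.05, against 2.61%. With the block 5 members had a more negative RA effect in memory cells, where 1.51% of genes passed and 0.624% passed in that direction. An unadjusted p under 0.05 was found with the block in 22, against 12.4%. The 5 members were Atf3, Chac1, Slc7a5, Iars and Mthfd2. Chac1 lay near the array median in these Foxp3+ cells (6.11 to 6.22), where a fall could hardly be seen. Atf3 differed by -2.16 ± 0.28 (adjusted p = 0.00215 with the block and 1 without) and Slc7a5 by -0.99 ± 0.19 (adjusted p = 0.0224 with the block and 1 without). Asns (-1.37 ± 0.31) and Nars (-0.73 ± 0.17) lay just beyond the threshold (adjusted p = 0.0504 with the block for each). With both memory arrays of number 3 left out, 1 of 42 passed with the block (Atf3), and with those of number 1 or 2 left out, 2 passed each time. Nearby lists were also lower in this contrast. The median was -0.46 in the members, -0.60 in other ATF4 targets, -0.52 in 8 other folate and purine genes, -0.38 in 9 other cytosolic synthetases and -0.38 in 8 other carriers. In each of the last 3 lists 5 genes had an unadjusted p under 0.05 with the block and 0 passed. Mitochondrial synthetases (-0.07) and ATF6 and XBP1 targets (-0.08) lay nearer to the median of all genes (-0.0074). The experiments also differ in mice, stimulus, TGFbeta dose and time, which cannot be told apart from the cell type.

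**Figure D4:**
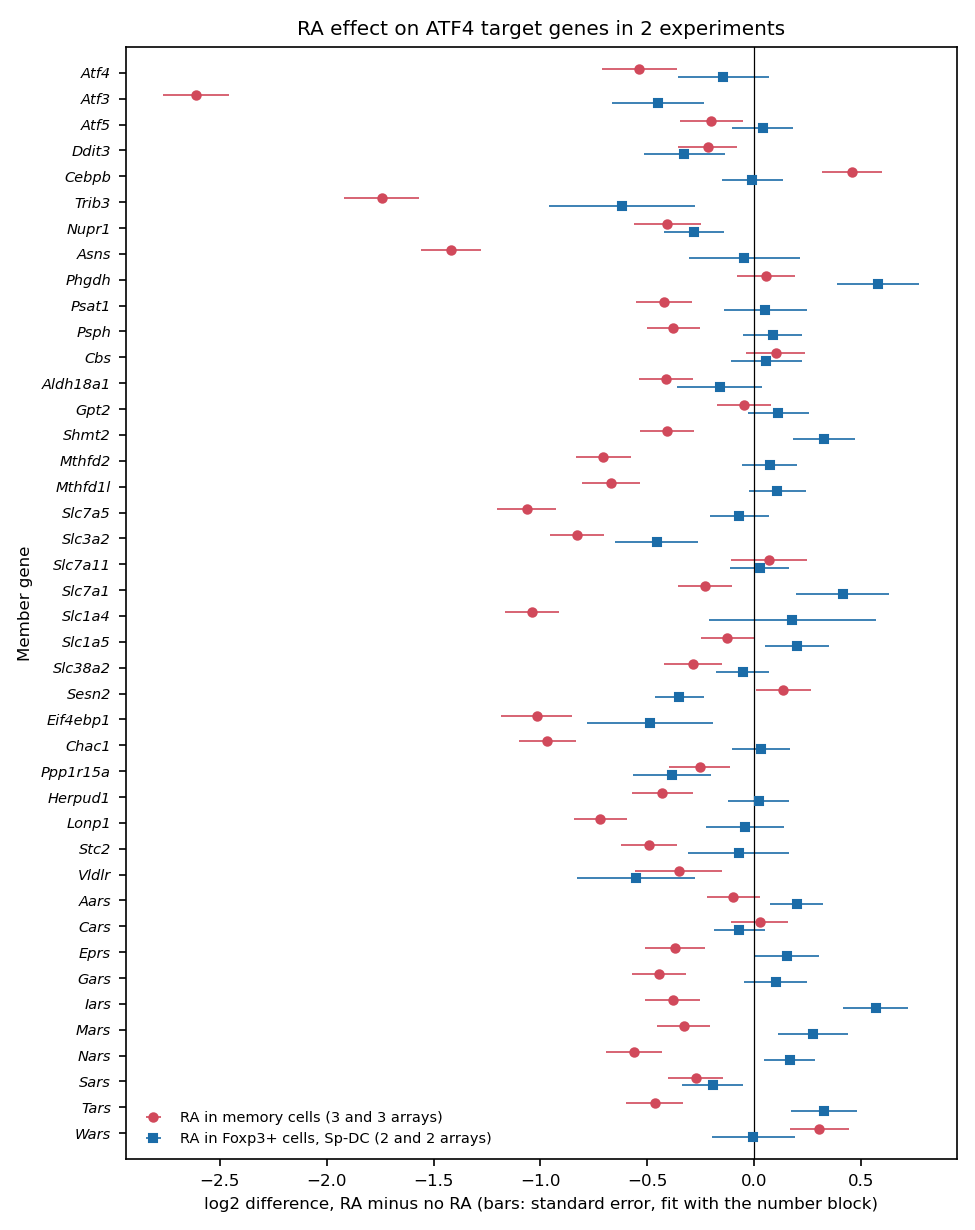
Points give the log2 difference with RA for 42 members in memory cells (red, 3 and 3 arrays) and in Foxp3+ cells of the Sp-DC culture (blue, 2 and 2 arrays), with the standard error of the blocked fit as bars. Red points lie mostly left of 0, and blue points lie on both sides with a median of 0.02.

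The source of the dendritic cells was followed by lower Eif4ebp1. In Foxp3+ cells it read 9.44 and 10.35 with Sp-DC and 8.55 and 8.29 with LP-DC, with no overlap (-1.48 ± 0.29, adjusted p = 0.0481 with the block and 0.389 without). In Foxp3- cells the values were 9.85 and 10.67 against 8.84 and 8.72, again with no overlap, and the difference was of the same size without passing (-1.48 ± 0.29, adjusted p = 0.0577 with the block and 0.501 without). The test of the difference between the sorts gave 0.00 ± 0.42 (adjusted p = 1 with the block). The other 2 probe sets of Eif4ebp1 differed by -1.33 and -0.05 in Foxp3+ cells, so 1 of them showed almost no difference. In Foxp3- cells they differed by -1.15 and -0.61. Over 5 settings with the block, the adjusted p in Foxp3+ cells ran from 0.035 to 0.113 and passed in 2, so that this call depends on the setting. The Sp-DC arrays of this comparison also serve as the controls of the RA comparison.

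Other members in LP-DC over Sp-DC did not pass. In Foxp3+ cells 0 of 42 passed in limma without the block (0% of genes did), and 4 had an unadjusted p under 0.05, against 8.03%. With the block Eif4ebp1 was the 1 that passed (1.44% of genes), and 10 had an unadjusted p under 0.05, against 18.9%. Means were lower in 25 of the 42 tested, against 49% of genes. Of all 43 members, with Cth under the filter, 18 were lower in both pairs, against 33.1% of genes tested. In Foxp3- cells 0 passed without the block (0% of genes) and 0 with it (0.586%), with 6 and 14 at an unadjusted p under 0.05, against 6.66% and 16.7% of genes. Lower means were found in 31 of the 42 tested, against 50.7% of genes. Of all 43 members, with Cth under the filter, 25 were lower in both pairs, against 32% of genes tested. The 8 effectors were all lower in mean with LP-DC in Foxp3- cells (median -0.38).

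Of the 7 regulators, 6 had an unadjusted p under 0.05 with the block in Foxp3- cells, against 16.7% of genes, and 5 of them were lower with LP-DC. Averaged over the regulators, centred values were -0.14 and 0.53 on Sp-DC arrays 1 and 2, and -0.21 and -0.17 on LP-DC arrays 1 and 2. Most of this difference thus came from Sp-DC array 2. Cebpb (5.63 to 6.23) and Nupr1 (5.54 to 6.15) lay near the array median in these groups. Atf4 read 9.59 and 9.62 with LP-DC and 9.81 and 10.86 with Sp-DC, with no overlap (-0.74 ± 0.21, adjusted p = 0.123 with the block and 0.75 without). Trib3 (-0.91 ± 0.34), Atf3 (-0.64 ± 0.21), Ddit3 (-0.46 ± 0.19) and Cebpb (-0.45 ± 0.14) were lower and Nupr1 (0.41 ± 0.14) was higher in mean, and none of them passed. The other probe set of Ddit3 differed by 0.27, in the other direction. Among further ATF4 targets, Pck2, the mitochondrial enzyme that makes phosphoenolpyruvate, fell with LP-DC in Foxp3- cells (-0.84 ± 0.14, adjusted p = 0.0434 with the block and 0.49 without). The 9 dendritic cell markers summed to 1144 to 1302 in intensity with LP-DC and 1789 to 2557 with Sp-DC in Foxp3- cells, and 1508 to 1524 against 1902 to 2629 in Foxp3+ cells. These sums rest on H2-Ab1 (mean log2 level 9.01 against 10.29 in Foxp3- cells) and Cst3, and of all 9 H2-Ab1 in Foxp3- cells was the 1 that passed with the block. Itgax, Lyz2 and Xcr1 were under the filter, and Cd74 was higher in mean with LP-DC in Foxp3+ cells (6.73 against 6.23). The CD8 T and NK cell markers summed to 1660 to 2758 against 3124 to 4728, and 1039 to 1614 against 3498 to 3807. Most of this sum is Nkg7 (10.87 against 11.80, and 10.02 against 11.72), with Cd8a at 7.52 in both Foxp3- groups and Cd8b1 and Ncr1 under the filter. The part of these markers in the members' values was not tested.

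Between Foxp3+ and Foxp3- cells of the same cultures no member passed. On the mean of 3 cultures 0 of 42 passed in limma without the block (0.896% of genes did) and 0 with it (4.75%), and 2 and 7 had an unadjusted p under 0.05, against 7.92% and 14.8% of genes. With the block Vldlr, the lipoprotein receptor (0.57 ± 0.17, adjusted p = 0.125), Aldh18a1 (0.41 ± 0.13, adjusted p = 0.123) and Cebpb (0.29 ± 0.09, adjusted p = 0.127) were higher in Foxp3+ cells in mean, and Iars (-0.25 ± 0.10, adjusted p = 0.245) was lower. Of the nearby genes, Jdp2, a repressor of the ATF family, rose in Foxp3+ cells (0.79 ± 0.17, adjusted p = 0.0244 with the block and 0.437 without), and Eif2ak3 fell (-0.62 ± 0.12, adjusted p = 0.0167 with the block and 0.083 without).

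Across the 8 groups the memory cells had the highest levels of many members. All 3 memory arrays without RA lay above all 11 co-culture arrays in 20 of the 42 members tested in both experiments, against 12.9% of genes, and the reverse was seen in 1. With RA the same held for 12 members, against 13.1%, and the reverse for 2. The share of all genes was not counted for the reverse, so those counts cannot be set against it. Cth was under the filter in the co-culture, with values of 3.58 to 4.02 on its 11 arrays, while memory cells without RA read 7.05 to 8.28. Atf3 with RA in memory cells (6.79 to 7.36) lay within the co-culture range of 5.87 to 7.55, whereas Slc7a5 with RA (9.37 to 10.66) stayed above the co-culture arrays (at most 8.54). For Asns the lowest RA array (8.005) was level with the highest co-culture array (7.996), which was Sp-DC array 2 of Foxp3- cells. These are levels in cells that differed in origin, stimulus and time of culture, so no test is given.

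**Figure D5:**
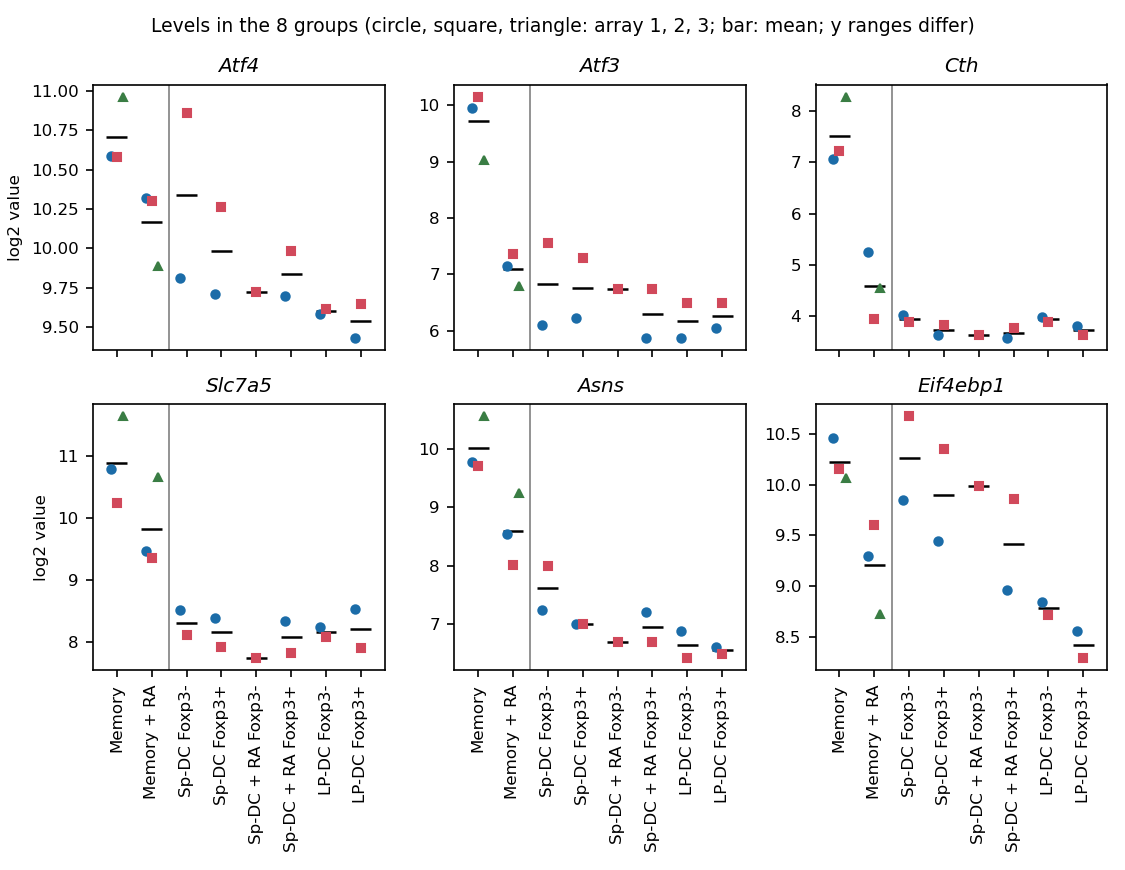
Log2 values of 6 members in the 8 groups are plotted by array, with circles, squares and triangles for arrays 1, 2 and 3 and a bar for the mean. The vertical ranges differ between panels, and the memory experiment is left of the grey line. Cth lies between 3.58 and 4.02 throughout the co-culture, and Eif4ebp1 is lower with LP-DC than with Sp-DC in both sorts.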

How the data were processed

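The authors deposited linear intensity values of 45101 probe sets from Affymetrix mouse arrays, RMA values per the labels. The version, and whether the arrays were normalized jointly, is not stated in the labels. RNA went through repeated amplification before labelling, per the labels' protocols, which favours 3 prime ends. The log2 of each intensity was taken with no pseudocount. Gene names came from the platform annotation (34958 probe sets with 1 gene, 932 with several, 9211 with none), and a gene was tested where it exceeded the array median on 2 or more arrays of the experiment. Some source labels of GFP+ arrays read Foxp3-, and titles and the sort label were used. Each experiment had its own limma 3.58.1 model (R 4.3.3) of group means, and p-values were adjusted by Benjamini-Hochberg over every gene that entered it, without a block as designed. Residuals of arrays with the same number correlated at 0.45 to 0.76 (co-culture) and 0.66 to 0.94 (memory), so the labels' numbers were taken to pair the arrays. The fit with the number as a block is given beside the designed fit, and falls and rises in the text are calls of the blocked fit. Arrays per group limit the precision. All members are named by role, with array values for those called and for Atf4 and Ddit3, and at most 4 called genes of each further list. Motifs were searched in RefSeq promoters, which 37 of 44 members have. The members and lists were chosen with earlier results of these data known. Alternatives were other normalizations, filters, probe set rules, variance models, the block and arrays left out.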

Additional observations from a re-analysis of the deposited data

Results flagged for a closer look

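The RA effect differed between memory cells and Foxp3+ cells of the Sp-DC culture, by the test of the difference in the fit with the array number as a block, in 5 members. Atf3, the bZIP factor downstream of ATF4, differed by -2.16 ± 0.28 (limma, adjusted p = 0.00215) and passed in each of 8 settings with the block. Chac1, the glutathione-degrading enzyme, differed by -0.999 ± 0.181 (adjusted p = 0.0156) and passed in 6 of 8. In the Foxp3+ cells Chac1 read 6.11 to 6.19 without RA and 6.14 to 6.22 with it, near the array medians (5.89 to 5.94). A fall there could hardly be seen, so its difference rests on the memory cells. Slc7a5, the leucine carrier, differed by -0.99 ± 0.19 (adjusted p = 0.0224) and passed in 6 of 8. Iars, the isoleucine synthetase, differed by -0.95 ± 0.19 (adjusted p = 0.029) and passed in 4 of 8. Mthfd2, of mitochondrial folate metabolism, differed by -0.78 ± 0.17 (adjusted p = 0.0425) and passed in 4 of 8. Without the block 0 of these passed in the 20 settings run (19 for Chac1). The sign was negative in each of the settings run.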

How the results depend on the processing

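The labels' array numbers were taken to pair the arrays, and the replicate block was the choice that moved the counts most. For RA in memory cells the count of members called was 0 without it and 13 with it, 12 with the block and quantile normalization, 13 with the block and array medians subtracted, 17 with the block and the mean of all probe sets, and 13 with the block and cross-hybridizing probe sets passed over. One fit over all arrays without the block gave 4, leaving out both arrays numbered 3 gave 7 without the block and 6 with it, and leaving out those numbered 1 or 2 gave 14 and 13 with it. Leaving out 1 array at a time gave 0 to 1, the 1 being Atf3 without memory array 3. For LP-DC over Sp-DC the count in Foxp3+ cells was 1 with the block and 2 with the block and quantile normalization, and in Foxp3- cells 1 with the latter. In Foxp3+ cells it was 0 with the block and medians subtracted, the mean of all probe sets, or cross-hybridizing probe sets passed over. For the difference of RA effects it was 5 with the block, 9 with quantile normalization added, 5 with medians subtracted, the mean of probe sets or cross-hybridizing probe sets passed over, and 1, 2 and 2 without the memory pairs numbered 3, 1 and 2. Quantile normalization, median subtraction, the filters, log2 of the value plus 32, the probe set rules and trended robust variances left the count at 0 without the block in each comparison, as did single arrays left out other than memory array 3. No called value changed sign. Leaving out the single array of Foxp3- cells with RA leaves no comparison. With 2 or 3 arrays in a group and 1 residual degree of freedom in the blocked memory fits without a pair, the p-values lean on the prior variance. Settings with 1 memory pair left out, and those joining the block with another choice, were chosen after seeing the data. Dim genes such as Cth with RA have only a rough size.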
